A study of Mus musculus with 29 samples.

Results

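The SOX2-YPET OCT4-HA list holds the peaks called after precipitation against the HA tag of OCT4. The NIH-3T3 cells used also expressed SOX2 fused to the yellow fluorescent protein YPet. All 5146 peaks of the list were members, out of 304922 peaks in the 28 lists of the series. NIH-3T3 is a mouse fibroblast line. The cells carried the rtTA3G activator and lentiviral transgenes whose expression was switched on overnight with 500 ng/ml doxycycline, and chromatin was fixed with 1% formaldehyde before anti-HA immunoprecipitation and sequencing (ChIP-seq). OCT4-HA and SOX2-HA expressed alone, both in the same cell type and under the same induction, had 2 lists each, and so did BHLHB8-HA, a helix-loop-helix factor. The co-expression has 1 list and no replicate, so no difference between it and another construct carries an error between libraries. The SOX2 partner carried YPet and no HA tag, so the antibody was directed at OCT4-HA and not at SOX2. Whether each peak marks binding of OCT4-HA was not tested. The files give positions only, and the read depth behind every list is unknown. A larger number of occupied sites and a larger number of detected sites cannot be told apart from them.

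OCT4 is a POU-domain factor and SOX2 an HMG-box factor. In embryonic stem cells they bind side by side at composite elements made of a SOX sequence and an octamer, and together keep the pluripotency program on. Both genes are normally silent in fibroblasts. The study asked whether the presence of SOX2 changes the number of sites that OCT4 occupies in these cells.

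The following central windows of 200 bp show what the peaks look like at the level of sequence. They are read from the plus strand of GRCm38. The first pair is from the 2 peaks that lay on both an OCT4-HA and a SOX2-HA peak and held ACAATGG, a SOX recognition sequence, which is in capitals. The third is from the 1 peak of the list whose window held a SOX element within 3 bases of an octamer on the same strand, in capitals from the first to the last base of the pair. It was chosen after its values were seen. The last pair is from 2 of the narrowest peaks of a dense stretch of chromosome 5 described below and held neither sequence.

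chr5:14948071-14948270: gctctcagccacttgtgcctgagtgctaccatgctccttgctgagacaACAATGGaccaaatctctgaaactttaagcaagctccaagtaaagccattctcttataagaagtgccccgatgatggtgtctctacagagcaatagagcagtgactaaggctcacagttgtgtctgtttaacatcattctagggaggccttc
chr11:3138520-3138719: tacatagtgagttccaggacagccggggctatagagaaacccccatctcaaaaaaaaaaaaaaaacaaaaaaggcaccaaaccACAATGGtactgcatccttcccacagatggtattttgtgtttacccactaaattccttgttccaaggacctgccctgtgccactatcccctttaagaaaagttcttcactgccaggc
chr1:140245494-140245693: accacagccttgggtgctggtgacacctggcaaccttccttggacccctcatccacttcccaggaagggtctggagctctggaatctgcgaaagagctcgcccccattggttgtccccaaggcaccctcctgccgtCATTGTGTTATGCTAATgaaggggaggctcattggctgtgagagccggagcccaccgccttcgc
chr5:7021145-7021344: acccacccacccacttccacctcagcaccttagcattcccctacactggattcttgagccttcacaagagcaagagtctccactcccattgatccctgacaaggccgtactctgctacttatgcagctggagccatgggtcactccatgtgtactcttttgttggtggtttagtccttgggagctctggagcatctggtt
chr5:10875400-10875599: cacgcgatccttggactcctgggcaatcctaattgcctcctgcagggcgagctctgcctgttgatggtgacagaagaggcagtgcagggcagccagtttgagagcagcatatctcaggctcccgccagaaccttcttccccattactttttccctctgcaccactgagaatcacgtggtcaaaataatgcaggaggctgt

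The first of these windows was intergenic, 9742 bp from the nearest start site of a protein-coding transcript, that of Speer4e, and its peak lay at a site where 20 constructs had a peak. The second was in an intron of Sfi1, which encodes a centrin-binding protein of the spindle pole, at a site of 22 constructs. The window with the SOX element beside an octamer lay 564 bp from a start site of Kcnt2, a sodium-activated potassium channel gene, in a peak of 264 bp. That peak overlapped no peak of another construct. The 2 narrow peaks, 253 bp each, were in an intron of Zfp804b and between genes, and both lay on a peak of BHLHB8-HA replicate 2.

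The list was longer than those of OCT4-HA alone. It held 5146 peaks, against 95 in OCT4-HA replicate 1 and 52 in replicate 2, 73.2 times their geometric mean. Duplicate lists of one construct differed by 1.32 to 5.49 times in the 4 constructs that have them, and the pooled standard deviation corresponded to a factor of 2.30. Most of the OCT4-HA peaks lay at sites bound by 10 or more of the 24 constructs, which are called widely shared here. Outside those sites OCT4-HA kept 32 and 4 peaks, whereas the co-expression list kept 5019. The width of the co-expression peaks ran from 253 to 2293 bp with a median of 328 bp. The medians were 324 and 283 bp in the SOX2-HA lists and 325 and 362 bp in the BHLHB8-HA lists.

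A small share of the co-expression peaks was at sites of the 2 factors expressed alone. An OCT4-HA peak was overlapped by 58 co-expression peaks (1.13%, 95% exact interval 0.857% to 1.45%), and 55 of these 58 were at widely shared sites. Seen from the shorter list, 59 of the 119 merged OCT4-HA peaks (49.6%) lay on a co-expression peak. The 1.13% was 286 times the share that peaks of the same widths would have if placed evenly along their chromosomes. Among the other constructs with fewer than 1000 peaks this ratio ran from 66.9 (BRACHYURY-HA) to 424 (PRR3-HA), with 267 for THAP4-HA. The share of their own peaks on a co-expression peak ran from 12.1% (BRACHYURY-HA) to 69.4% (PRR3-HA). OCT4-HA thus lay within the range of other short lists. Of the 165 peaks on SOX2-HA sites, 95 (57.6%) were widely shared, against 32 (0.642%) of the 4981 peaks that were not on SOX2-HA sites. The number of constructs at a site counts SOX2-HA and OCT4-HA themselves. Shares of widely shared peaks among those on OCT4-HA or SOX2-HA sites are thus in part fixed by the definition. The 50 peaks on both an OCT4-HA and a SOX2-HA site were all widely shared. None of them held an octamer in its central window (95% exact interval up to 7.11%), against 1.78% of genome tiles of the same GC, so no difference was detectable at this number. At the other extreme, 3201 peaks (62.2%) overlapped no peak of any other list. This share was above the median of 15.1% for the 19 other lists with at least 1000 peaks, and below the 77.7% of CDX2-HA, a homeodomain factor.

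Promoter peaks on OCT4-HA sites were mostly at genes with many other constructs. A peak was assigned to a promoter when its midpoint was at most 1 kb away from where a protein-coding transcript begins. There were 6 such peaks among the 58 on OCT4-HA sites (10.3%), against 4.84% of the whole list. The widest was at Hnrnpa3, an RNA-binding protein gene, with 1657 bp and 23 constructs at the site. The others were at Rps2, which encodes a ribosomal protein, with 1350 bp, at 1600014C10Rik with 1034 bp, at 4931408C20Rik with 1016 bp, at Duxf3 with 940 bp and at AW822073 with 743 bp. AW822073 was the exception, with 5 constructs at its site, against 14 to 24 at the other 5. Promoter peaks on SOX2-HA sites outside the widely shared ones numbered 4. They were at Thap1, Ndufb3, Olfr213 and Gm47995, were 253 to 608 bp wide and had 6 to 9 constructs at the site.

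The promoter share was 4.84% (249 of 5146) in the co-expression list and 10.1% (12 of 119) after merging the OCT4-HA lists, giving a log2 odds ratio of -1.19 (two-sided Fisher's exact test, p = 0.0165, adjusted p = 0.0494 over 3 tests by the Benjamini-Hochberg method). The units of this test are peaks, so it compares these lists and not the conditions. OCT4-HA replicate 1 had 12 promoter peaks among 95 and replicate 2 had 3 among 52. The difference was not past the threshold without replicate 1 (log2 odds ratio -0.47, p = 0.739, Fisher's exact test), nor among peaks of at least 300 bp (log2 odds ratio -1.07, p = 0.195, Fisher's exact test). The median distance of the co-expression peaks to a start site was 62.9 kb, against 22.98 and 22.94 kb in the OCT4-HA lists, 33.8 and 34.5 kb in the SOX2-HA lists and 19.5 and 20.1 kb in the BHLHB8-HA lists. More than 100 kb separated 40.4% of the co-expression peaks from any such start site. The corresponding shares were 24.2% and 24.9% for SOX2-HA.

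The peaks had smaller shares in intergenic sequence and introns than the genome, and larger shares in exons and promoters. Intergenic sequence held 50.2% of the midpoints and makes up 53.4% of the known genome. Introns held 36.6% and make up 40.0%. Exons outside promoters held 8.36%, against 4.18% of the genome, and promoters 4.84%, against 2.44%. The exon share was above those of the 19 other long lists, the highest of which was 8.04% in BHLHB8-HA replicate 2. The peaks also covered repeats as often as the genome does. Repeat-masked bases made up 35.5% of the central windows and 36.4% of genome tiles of the same length. The median of the 19 other long lists was 14.2%, with 14.3% and 13.4% in the SOX2-HA lists. ZFP319-HA, at 58.0%, and TEAD1-HA, at 35.9%, were above the co-expression list.

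The windows differed from the genome in base composition. Their mean GC content was 50.8%, with a standard deviation of 5.23 percentage points over peaks, and that of the genome tiles was 41.7%. This spread was the smallest of the 28 lists, the next being 5.49 points in SOX15-HA. Between 45% and 60% GC lay 85.7% of the windows, the highest share of any list, followed by 81.0% in BHLHB8-HA replicate 2. SOX2-HA windows averaged 43.6% and 44.7% GC. The co-expression windows on no other list averaged 50.3%, so the composition was not a property of the shared peaks alone.

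**Figure D1:**
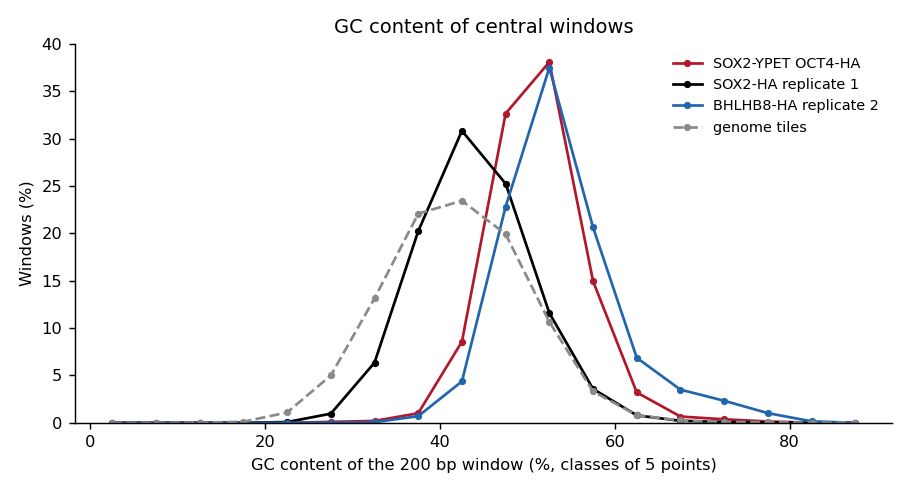
The percentage of 200 bp central windows (vertical axis) in classes of GC content 5 percentage points wide (horizontal axis) is drawn for the co-expression list, SOX2-HA replicate 1, BHLHB8-HA replicate 2 and all genome tiles. The co-expression windows average 50.8% GC and form the narrow peak at the right of SOX2-HA replicate 1, which averages 43.6%.

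The recognition sequences of the 2 factors were about as frequent as in genome tiles of the same GC content. The octamer ATGCNAAT, on either strand, was in 1.77% of the windows (91 of 5146, 95% exact interval 1.43% to 2.17%), and 1.72% was expected from tiles weighted to the same GC. The exact octamer ATGCAAAT, a subset of it, was in 0.758%, against 0.832%. Without regard to GC, 3.24% of all tiles held ATGCNAAT. ACAATGG or ACAAAGG was in 7.44% of the windows (6.74% to 8.19%), against 6.98% at the same GC and 7.58% in all tiles. The ratio to the same-GC genome was thus 1.07 for this SOX sequence, whereas it was 2.62 in SOX2-HA replicate 1 and 4.64 in replicate 2. For the octamer it was 1.03, against 4.09 in OCT4-HA replicate 1 (10 of 95 windows) and 1.71 in replicate 2 (2 of 52). The composite of CATTGT or CTTTGT followed within 3 bases by ATGCNAAT was found in the single Kcnt2 window, 0.0194% of the peaks (0.000492% to 0.108%), against 0.00369% of same-GC tiles.

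Sequences of other factors were close to the genome level too. TGAGTCA, the AP-1 site, stood at a ratio of 1.02, while the median of the 19 other long lists was 7.11. GGAATG, bound by TEAD factors, stood at 1.00 and TGTTTAC, bound by forkhead factors, at 0.878. The E-box CAGCTG was somewhat more frequent, in 15.02% of the windows against 12.4% at the same GC, a ratio of 1.21. That ratio was 1.44 in the 1657 peaks on BHLHB8-HA replicate 2 and 1.11 in the peaks on no other list. The GC box GGGCGG, at 0.811, was below all 19 other long lists, whose lowest value was 0.933 in ZFP319-HA. No preset sequence is needed for the same description. All 2080 words of 6 letters were ranked by their ratio to the same-GC genome with 0.5 added to observed and expected counts, and GCGGAC led in the co-expression windows at 1.70 times, as it did by the plain ratio. Of the 10 leading words, 9 contained CG and the other was GGATCC. In SOX2-HA replicate 2 the leading words were TGAGTC with 3.44 times and ACAATG with 3.43 times.

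**Figure D2:**
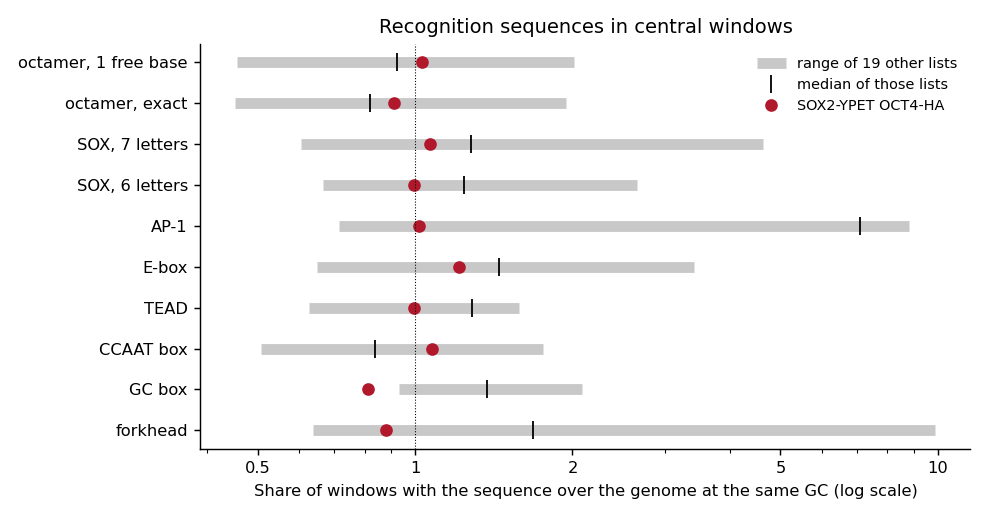
For each recognition sequence, the horizontal axis (log scale) gives the share of central windows that hold it divided by the share in genome tiles of the same GC. Red points are the co-expression list, grey bars the range and black ticks the median of the 19 other lists with at least 1000 peaks. The red points lie between 0.811 and 1.21.

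The peaks on SOX2-HA sites were then set against the rest of the list. The octamer was in 3.03% of the windows on SOX2-HA sites (5 of 165) and 1.73% of the others (86 of 4981), with 0.96 as the log2 odds ratio (two-sided Fisher's exact test, p = 0.217, adjusted p = 0.289). The SOX sequence ACAATGG or ACAAAGG was in 9.70% (16 of 165) and 7.37% (367 of 4981), with 0.47 as the log2 odds ratio (Fisher's exact test, p = 0.289, adjusted p = 0.289). Neither difference was detectable with so few shared peaks. When whole peaks were scanned, 12 and 165 peaks held the octamer (p = 0.0137) and 36 and 645 the SOX sequence (p = 0.00216), both by Fisher's exact test without adjustment. The peaks on SOX2-HA sites were wider, with a median of 436 bp against 326 bp, so more sequence was scanned in them. Without SOX2-HA replicate 2 the direction for the SOX sequence turned, with 8 of 118 peaks against 375 of 5028 (log2 odds ratio -0.069). The 70 peaks on SOX2-HA sites outside the widely shared ones held AP-1 sites in 11.4% of their windows (8 of 70, 5.07% to 21.3%), against 3.46% at the same GC. For every other sequence scanned in these windows, the interval included the share at the same GC. The peaks were selected by overlap with SOX2-HA, whose own windows held AP-1 sites in 28.8% (replicate 1) and 28.1% (replicate 2). The same-GC shares for those lists were 3.27% and 3.36%. Whether the AP-1 share in the 70 peaks is more than this selection brings was not tested.

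The peaks were spread unevenly over the chromosomes. Chromosomes 1, 5, 15 and 19 held 2787 peaks, 54.2% of the list, on 18.8% of the known genome. In the other 19 long lists the same chromosomes held between 24.5% (SOX2-HA replicate 1) and 44.6% (RHOX11-HA, a homeodomain factor). They are the densest chromosomes of this list, so its higher share follows in part from the choice and is a description. Of the 4393 peaks outside the dense stretch of chromosome 5, described below, they held 46.3%. Chromosome 15 had the highest density with 6.37 peaks per Mb, 3.28 times the mean of the list over the genome. Chromosome 5 followed with 6.04, chromosome 1 with 5.04 and chromosome 19 with 4.90 peaks per Mb. The densities of chromosomes 1, 15, 16 and 19, relative to the list's own mean, were above those of all 19 other long lists. On chromosome 5 RHOX11-HA was higher, at 3.18 times its own mean against 3.11.

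Other chromosomes were sparsely occupied. Chromosome 14 had 43 peaks (0.354 per Mb), chromosome 18 had 48, chromosome 17 had 64, chromosome 9 had 80 and chromosome 7 had 88. The X chromosome had 16 peaks, 0.311% of the list, although it makes up 6.18% of the known genome. The share on X was also low in the other long lists, with a median of 0.808%. The Y chromosome had 4 peaks. Mean GC differed less between chromosomes than repeat content did. Mean GC outside the dense stretch of chromosome 5, described next, ran from 50.0% on chromosome 5 to 51.8% on chromosome 18 over the autosomes. The repeat-masked share of the windows ran from 20.4% on chromosome 9 to 41.0% on chromosome 1.

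**Figure D3:**
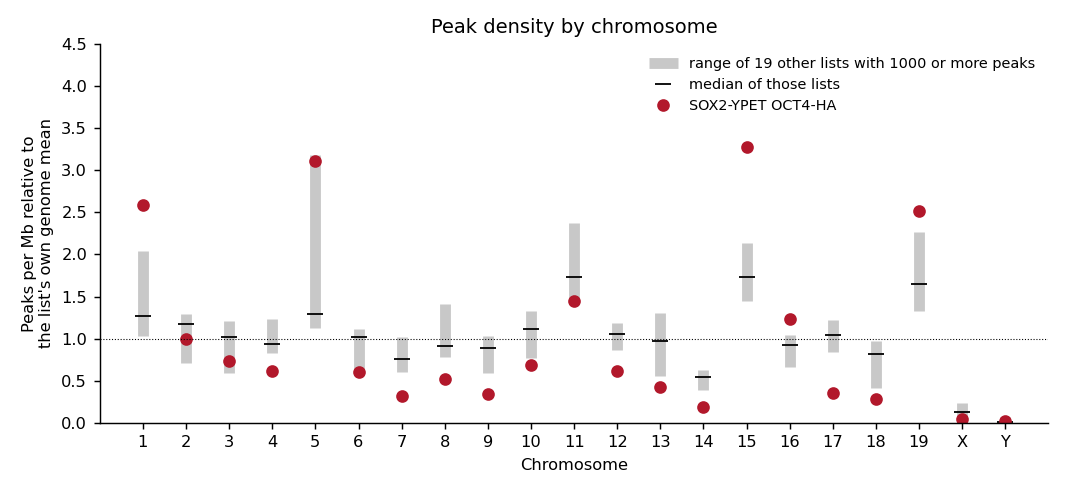
Peaks per Mb on each chromosome (horizontal axis) divided by the mean of the list over the genome (vertical axis). Red points are the co-expression list, grey bars the range and black ticks the median of the 19 other lists with at least 1000 peaks. The red points of chromosomes 1, 15, 16 and 19 lie above the bars, and those of chromosomes 7, 14 and 17, among others, below them.

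The largest accumulation was on chromosome 5 between 3 and 11 Mb, the first 8 Mb of sequence on that chromosome. The stretch was chosen with its peak number known, so its counts are a description. It held 753 peaks, 14.6% of the list (95% exact interval 13.7% to 15.6%), on 0.302% of the known genome. The next highest share among the 28 lists was 11.2% in RHOX11-HA, and the median of the other lists was 1.27%. The OCT4-HA lists had 1 peak each there. The 8 bins of 1 Mb held 71, 95, 89, 113, 105, 84, 104 and 92 peaks in order from 3 Mb. The bin from 11 to 12 Mb held 7 and the next 2 held none. On the rest of chromosome 5 there were 141 peaks, 1.01 per Mb, against 94.1 per Mb in the stretch. Chromosome 5 was thus dense through this stretch, and not along its length. The copy number of chromosomes and stretches in the cells used is not known here. More copies of the DNA and more sites on it cannot be told apart from peak positions, here and for the other chromosomes, the fall on chromosome 16 described below and the genes with many peaks.

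Peaks within the stretch were closely spaced. The median distance between neighboring midpoints was 7.95 kb and the longest 62.3 kb, while on chromosome 15 the median was 78.3 kb. The peaks were wider than elsewhere, with a median of 387 bp against 322 bp, and had more repeat-masked bases, 46.2% against 33.6%. Mean GC was 50.1% against 51.0%. CCAAT, the sequence bound by NF-Y, was in 35.7% of the windows of the stretch (32.3% to 39.3%), against 26.9% at the same GC. Outside the stretch it was in 26.9%, against 26.1%. The octamer was in 1.59% of the windows of the stretch and the SOX sequence in 7.97%, against 1.82% and 7.10% at the same GC. CCAAT was not the only sequence that departed there. The E-box CAGCTG was in 15.1% (12.7% to 17.9%), against 11.9% at the same GC. The GC box was in 2.39% (1.42% to 3.75%), against 4.43%, and TGTTTAC in 1.06% (0.46% to 2.08%), against 2.13%. Ratios for these last sequences were 1.27, 0.54 and 0.499 in the stretch, and 1.203, 0.851 and 0.945 outside it.

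Another sharp fall in density was seen on chromosome 16 and was chosen after its values were seen. Of 227 peaks on this chromosome, 201 (88.5%) lay before 20 Mb, which is 17.8% of its known sequence. In equal spans of 17 Mb on both sides of that point there were 201 and 6 peaks, so that 97.1% (93.8% to 98.9%) were on the proximal side. The corresponding share was 86.6% in RHOX11-HA, 69.2% in BHLHB8-HA replicate 2, 55.4% in BHLHB8-HA replicate 1 and 47.4% in SOX2-HA replicate 1. At the distal edge of the stretch on chromosome 5, with spans of 8 Mb, the share on the proximal side was 93.5%, and it was 93.4% in BHLHB8-HA replicate 2 and 63.3% in SOX2-HA replicate 1. It was 86.2% in RHOX11-HA and 83.8% in TEAD1-HA. Over the 19 other long lists the median was 65.3% and the lowest value 42.9% (TOX3-HA).

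**Figure D4:**
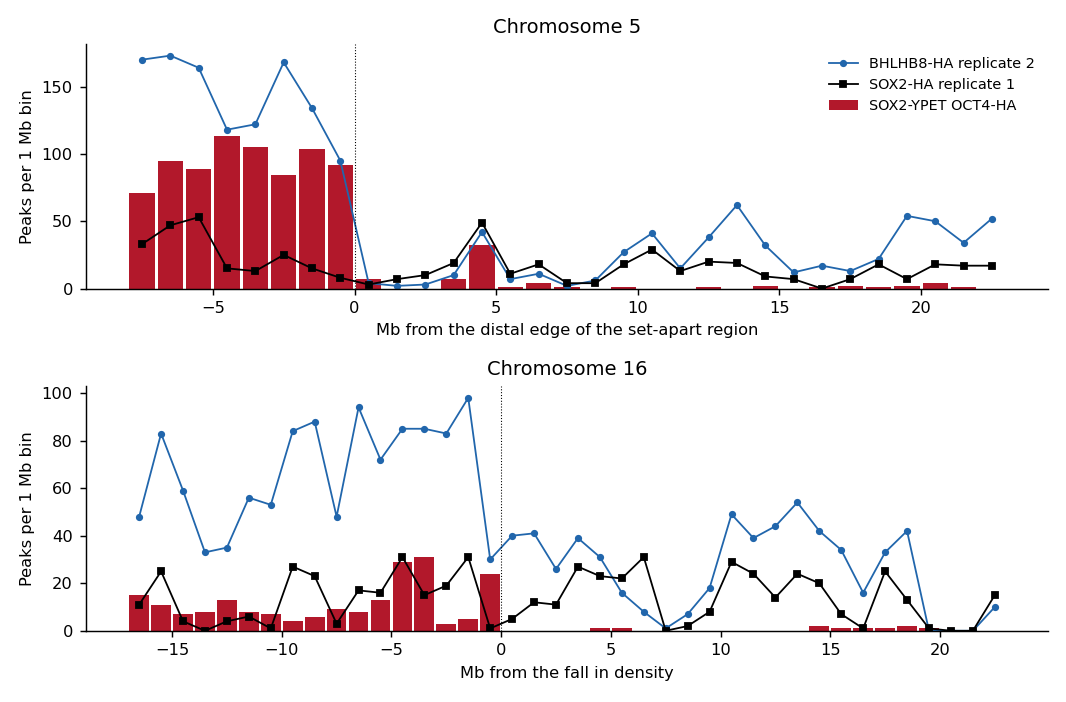
Peaks per 1 Mb bin (vertical axis) against the distance in Mb from the distal edge of the dense stretch on chromosome 5 (top) and from the fall in density on chromosome 16 (bottom). Bars are the co-expression list, blue circles BHLHB8-HA replicate 2 and black squares SOX2-HA replicate 1. The bars hold 71 to 113 peaks in each bin before the edge on chromosome 5 and 7 in the first bin after it.

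Outside the dense stretch the genome was divided into 2652 bins of 1 Mb. Of these, 1298 (48.9%) held no peak and the fullest 5% held 35.4% of the peaks. The 10 fullest bins had 21 to 32 peaks. Of these, 3 were on chromosome 16, from 15 to 16, from 16 to 17 and from 19 to 20 Mb, with 29, 31 and 24 peaks. The others were from 15 to 16 Mb on chromosome 5 with 32 peaks, from 115 to 116 Mb on chromosome 12 with 31, from 20 to 21 Mb on chromosome 8 with 26 and from 147 to 148 Mb on chromosome 4 with 22. The bins from 144 Mb on chromosome 1, from 12 Mb on chromosome 13 and from 15 Mb on chromosome 15 held 21 each. The bin on chromosome 12 and that on chromosome 15 held no start site of a protein-coding gene. Across the 2652 bins the peak number had a Spearman correlation of 0.08 with GC, -0.12 with repeat content and 0.09 with the number of protein-coding genes. With the number of peaks of other lists it was 0.55 for DUXBL-HA, 0.42 for RHOX11-HA, 0.41 for CDX2-HA, 0.37 for BHLHB8-HA replicate 2 and 0.29 for SOX2-HA replicate 1. These are descriptions over bins, which share their mappable sequence and the cell line between lists.

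Overlap with the other lists was led by BHLHB8-HA replicate 2. This list covered 32.2% of the co-expression peaks, RHOX11-HA 8.16%, SIX6-HA, another homeodomain factor, 6.96% and BHLHB8-HA replicate 1 5.17%. The other 23 lists covered between 0.564% (THAP4-HA) and 4.51% (SOX15-HA). Peaks of the same widths, placed evenly along their chromosomes, would overlap BHLHB8-HA replicate 2 in 2.47% of cases, so the observed share was 13.04 times that value. For the merged SOX2-HA peaks the observed 3.21% was 3.76 times the even share, with 11.6 times without SOX2-HA replicate 1 and 2.74 times without replicate 2. Lists of other constructs of similar length were at 2.86 (CDX2-HA), 3.00 (DLX6-HA), 3.40 (DUXBL-HA) and 4.07 times (DLX1-HA). The merged SOX2-HA value was within this range. For the merged BHLHB8-HA peaks the observed 32.9% was 10.1 times, with 13.04 times without BHLHB8-HA replicate 1 and 3.10 times without replicate 2. RHOX11-HA and SIX6-HA, with shorter lists, were at 42.9 and 33.5 times. Other lists of 1099 to 7669 peaks ran from 7.02 (EBF1-HA) to 71.7 times (FOXA1-HA replicate 2), with HLF-HA at 48.9, so these 2 were within that range. Even placement takes no account of GC content, mappability or copy number, and their part in these ratios was not tested. BHLHB8-HA replicate 2 alone accounted for 1003 peaks that were on no other list.

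**Figure D5:**
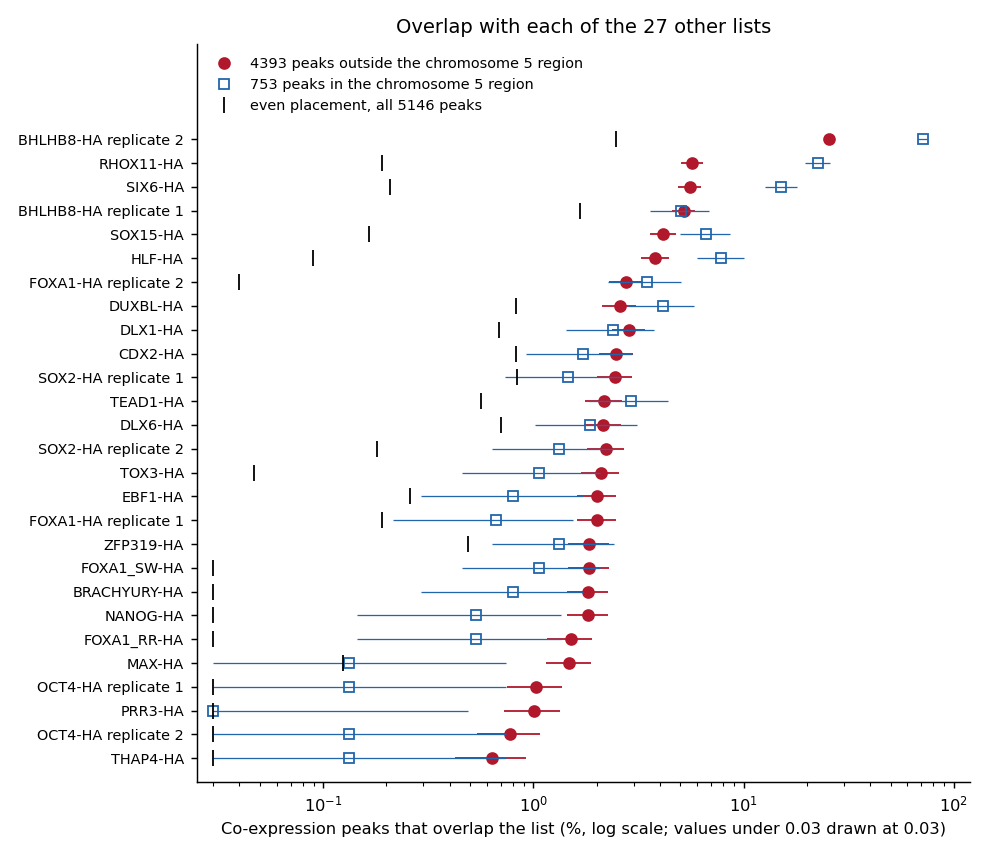
Percentage of co-expression peaks that overlap each of the 27 other lists by at least 1 bp (horizontal axis, log scale), with 95% exact intervals. Red points are the 4393 peaks outside the dense stretch of chromosome 5, blue squares the 753 peaks inside it and black ticks the share under even placement of all 5146 peaks. BHLHB8-HA replicate 2 covers 25.5% outside and 71.2% inside the stretch.

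The dense stretch and the remaining genome differed in this overlap. Inside it, BHLHB8-HA replicate 2 covered 71.2% of the co-expression peaks (67.8% to 74.4%), against 25.5% outside. Since that list itself had 1144 peaks in the stretch, even placement within the stretch gives 12.7%, and the observed share was 5.63 times higher. BHLHB8-HA replicate 1, the same construct, had 361 peaks there and covered 5.05%, 1.45 times its even share. RHOX11-HA covered 22.6% (5.02 times) and SIX6-HA 15.1% (7.18 times). SOX2-HA replicate 1 covered 1.46% (11 of 753), 0.721 times its even share. For SOX2-HA replicate 2 it was 1.33% (10 of 753), 2.49 times its even share, so the 2 lists differed in direction. The peaks of other lists in the stretch lay on BHLHB8-HA replicate 2 less often, in 9.32% (CDX2-HA) to 55.9% (SIX6-HA) of cases. This covers the 18 other lists with at least 20 peaks there, among them BHLHB8-HA replicate 1 at 38.8%. Only 20.5% of the co-expression peaks in the stretch were on no other list, against 69.4% outside.

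The share of peaks on no other list varied among chromosomes. Its value outside the dense stretch was 68.8% on chromosome 1, 70.4% on chromosome 15 and 73.0% on chromosome 19, close to the 69.4% of all peaks there. It was 59.9% on chromosome 16 and 50.0% on chromosome 13, and 85.9% and 87.5% on chromosomes 17 and 18, which had 64 and 48 peaks. Chromosomes 1, 15 and 19 thus had many sites seen with this construct alone. Of the peaks on no other list, 2.75% were at promoters. This share was 16.0% among the 624 peaks shared by 3 to 9 constructs and 5.51% among the 127 at widely shared sites.

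Genes with many peaks were mostly those of the dense stretch. It contained 42 protein-coding genes, and the limit on copy number given above holds for them. A peak lay in the body of 34 of them and at the promoter of 22, and 17 had 5 or more peaks in the body. Over all protein-coding genes, 5.79% had a peak in the body and 1.18% one at the promoter. Of the peaks themselves, 3.05% were at promoters in the stretch and 5.14% outside it, so the promoter count went with peak density. Zfp804b, a zinc-finger gene, had the most with 61 peaks, followed by Cdk14, a cyclin-dependent kinase gene, with 56. Adam22, which encodes a synaptic receptor, had 27 and Grm3, a metabotropic glutamate receptor gene, had 25. Akap9, which encodes a kinase-anchoring scaffold, had 15, Rundc3b 13, Cfap69 11, Ankib1 8 and 9330182L06Rik 16. Cdk6, the kinase that acts with D cyclins in G1, had 10. The drug transporter genes Abcb1a and Abcb1b had 5 and 6, and Cyp51, an enzyme of cholesterol synthesis, had 5. Dmtf1 and Tmem243 overlap on the chromosome and had 6 each. Per 100 kb of gene these were 5.28 (Cdk6) to 21.2 peaks (Cyp51). In Zfp804b 43 of the 61 peaks, and in Cdk14 39 of the 56, lay on BHLHB8-HA replicate 2, and none and 3 of them on SOX2-HA.

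Elsewhere the genes with the most peaks were long. Rbfox1, a splicing regulator gene of 1526 kb on chromosome 16, had 14 peaks, 0.917 per 100 kb, and 13 of them were on no other list. Csmd3 on chromosome 15 had 12 and Cntnap5a on chromosome 1 had 13. Vps13b, Spidr and Raet1e had 10, 10 and 9, and Cep112, Ctnnd2 and Pard3b had 8 each. In Csmd3 all 12 peaks were on no other list. Sfi1 stood apart, with 14 peaks in 61.6 kb, 22.7 per 100 kb. Of these peaks, 9 lay on BHLHB8-HA replicate 2, 8 on SOX2-HA sites and 4 on no other list.

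Promoters of 257 protein-coding genes had a co-expression peak, 1.18% of the 21829 annotated. BHLHB8-HA had a promoter peak at 46.8% of all protein-coding genes, SOX2-HA at 5.01% and OCT4-HA at 0.055%, and the overlaps are to be read against these shares. The promoters of BHLHB8-HA held 187 of the 257 (72.8% of the co-expression genes and 1.83% of the BHLHB8-HA genes). Those of SOX2-HA held 35 (13.6% and 3.20%) and those of OCT4-HA 6 (2.33% and 50.0%). Of the 56 genes on a list of pluripotency regulators, 2 (3.57%) had a promoter peak by the 1 kb rule. These were Pou5f1 and Sox2, the genes of the expressed factors themselves, and both peaks lay inside the gene. With the promoter widened to 10 kb the number was the same, at 3.57% against 3.99% of all protein-coding genes. With 500 bp it was 0, against 0.793%. A peak in the gene body was found in 4 of the 56 (7.14%), against 5.79% of all protein-coding genes. The other 2 were Jarid2, a Polycomb partner gene, and Rif1, a replication-timing regulator gene. The Jarid2 peak, 420 bp in an intron, was at a site of 23 constructs, and that of Rif1, 276 bp in an intron, was seen with this construct alone.

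The peaks at Pou5f1 and Sox2 were among the wide ones. That at Pou5f1 (chr17:35509207-35510296) was 1090 bp wide, with 29.0% of its bases in coding exons, and that at Sox2 (chr3:34650545-34651328) was 784 bp wide, with 100% in its coding exon. The nearest annotated start sites were 931 bp (Pou5f1) and 532 bp (Sox2) from the peak midpoints. The Pou5f1 gene runs from 35506018 to 35510772, so that start site is inside the gene and not at either end. Neither peak thus shows occupancy of the gene's own promoter. None of the 27 other lists had a peak in the body of either gene. The transgenes carry the coding sequences of mouse factors, so reads from the integrated copies and from the endogenous genes cannot be told apart in these lists. Without these 2 genes no pluripotency gene had a promoter peak.

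Other gene lists had at most 1 gene with a promoter peak, and with 1.18% of all protein-coding genes called, a count of 0 or 1 in lists of this size is not a result about them. Among 34 fibroblast identity genes none had a promoter peak. SOX2-HA had one at 13 of them and BHLHB8-HA at 21, where the shares over all genes are 5.01% and 46.8%. None of 20 collagen genes had one, against 3 and 15. None of 30 germ layer regulators had one, against 0 and 6. The 19 SOX genes included 1 with a promoter peak, Sox2, and the 15 POU genes 1, Pou5f1. In gene bodies, peaks were seen in Vim, the vimentin gene, in Col14a1 (2 peaks), in Sox5 (2 peaks) and in Pou2f1, all chosen after their values were seen. The Vim peak, in an exon and 521 bp wide, was found with this construct alone, and so was the Pou2f1 peak of 318 bp. The OCT4-HA lists had a promoter peak at none of the genes in the 6 lists.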

How the data were processed

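Peak lists of 28 anti-HA ChIP-seq samples in NIH-3T3 cells were used, and 1 input chromatin sample was not analysed here. According to the labels and the study's methods, the authors sequenced paired-end reads, aligned them to mm10 with STAR 2.5.3a, kept unique alignments, removed duplicates with Picard and called peaks for each sample with MACS2 2.1.1.20160309. Peaks over input peaks or blacklisted regions were discarded. The deposited files hold genomic positions only (chromosome, first and last coordinate), without a score, height or read count. Groups and replicate numbers follow the labels.

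Sequence was GRCm38 and gene annotation GENCODE vM21. Locations and start sites refer to the peak midpoint, and sequences to the central 200 bp. Overlap means at least 1 bp. Genome tiles of 200 bp were weighted to the GC of the peaks in classes of 10 bases. Duplicate lists were merged for a construct. Intervals are 95% exact (Clopper-Pearson) and cover counting error over peaks only. Shares were compared by Fisher's exact test, two-sided, with Benjamini-Hochberg adjustment over 3 tests and a threshold of 0.05. Alternatives cover peak width, promoter distance, overlap rule, sequence, the chromosome 5 stretch and each replicate left out. Simulated data with known answers were used to check overlaps, even placement and sequence matching, and 0 of 23 checks were off. Python 3.11.15, NumPy 2.4.6 and SciPy 1.17.1 were used.

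Genes were named by fixed rules: pluripotency genes with a peak, the expressed factors, the genes with the most peaks inside and outside the chromosome 5 stretch, and promoter genes on OCT4-HA or SOX2-HA sites in order of peak width. The members and gene lists were chosen with earlier results of these data known.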

Additional observations from a re-analysis of the deposited data

How the results depend on the processing

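The files carry no depth, so no list could be scaled to another, and the single co-expression list gives no error between libraries. No paired analysis was possible because the co-expression group has 1 list with no replicate number. The ratio of peak numbers to OCT4-HA kept its size within the spread of duplicates without the chromosome 5 stretch (63.4), with peaks of at least 300 bp (99.7), on the autosomes and with 1 OCT4-HA list left out (54.2 to 98.96). Outside sites of 10 or more constructs, an alternative chosen after seeing the data, it was 444.

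The share in the chromosome 5 stretch was 17.4% for peaks of at least 300 bp and 17.2% of covered bases, and 4.81% of peaks on no other construct. The promoter difference was no longer past the threshold with peaks of at least 300 bp (log2 odds ratio -1.07), and ran from -1.56 to -0.47 with 1 OCT4-HA list left out. The fold over even placement for SOX2-HA was 6.38 with reciprocal overlap of 50%, 5.20 with midpoints and 4.45 with wide peaks, and 2.74 to 11.6 with 1 list left out. For BHLHB8-HA these were 24.2, 16.3 and 11.2, then 8.14 without the stretch and 3.10 to 13.04 with 1 list left out. In whole peaks the log2 odds ratio on SOX2-HA sites was 1.24 for the octamer and 0.92 for the SOX sequence, both past the threshold only there. With 1 SOX2-HA list left out the SOX sequence ranged from -0.069 to 0.85. Pluripotency promoters fell to 0 within 500 bp. The causes of these shifts were not tested.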
